A study of Mus musculus with 60 samples.

Results

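Cocaine-seeking neurons of the mouse nucleus accumbens (NAc) were compared with neurons of the same animals that carried no ensemble label. Members were chosen by title code, which gives sex, region, replicate number and sorted population: the 6 cocaine-seeking and 6 non-ensemble NAc libraries, 12 of the 60 libraries of the series. All mice were adult offspring of Fos-iCreERT2 knock-in (TRAP2) and Ai14 reporter parents, in which Cre made under the Fos promoter switches on tdTomato permanently in cells active around a dose of 4-hydroxytamoxifen. Every animal had self-administered both cocaine and sucrose, gone through extinction, been tested for cocaine seeking with cocaine cues and tagged then, and been tested for sucrose seeking shortly before death. Dissociated cells that stained for NeuN were sorted: cocaine-seeking cells were tdTomato+ and cFos-, and non-ensemble cells carried neither label. Sucrose-seeking cells (cFos+ alone) and overlapping cells (both labels) came from the same sorts. Each library was bulk RNA from the pooled tissue of 3 mice of 1 sex, so by the study's design both populations of a pool shared the animals, the drug history and both tests, and differed in the label alone. Cocaine was always tagged first and by tdTomato, so the reward, the label and the time since tagging cannot be told apart. The labels call the tissue NAc core, whereas the study's methods place the punches in both lateral shell and lateral core.

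The 3 libraries of a sex and population were separate pools of mice, which makes 6 pairs in all. For the female NAc libraries the free-text description names another group, while the title gives the same sex and region as the fields for them, and the title was used. Total counts, with transcripts that matched no gene included, ran from 11293419 to 18708870 in the cocaine-seeking libraries. In the non-ensemble libraries they ran from 13219942 to 20262217. The Y-linked genes Ddx3y and Eif2s3y set 1 pool apart. In the 4 libraries of female pool 2, Ddx3y stood at 12.1 to 20.5 CPM (counts scaled to a common library size). Eif2s3y stood at 4.89 to 13.2 CPM there, while the other female pools held 0.337 to 2.24 and 0 to 1.10 CPM of these genes. In male pool 1, Ddx3y stood at 15.6 to 24.7 CPM, and in the other male pools at 28.3 to 39.2 CPM. Uty and Kdm5d, also Y-linked, stood at 9.79 to 17.9 and 67.1 to 122.9 CPM over all female libraries of the 12. In the male libraries they stood at 25.8 to 47.7 and 122.04 to 171 CPM. By Ddx3y and Eif2s3y the pool labelled female 2 goes against its label in part. The total counts of called genes, and each list's count that changed without this pool, are also given without it.

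A neuronal ensemble is the sparse set of neurons that fire together in a learned behaviour, and the accumbens, where medium spiny neurons with D1 or D2 dopamine receptors make up most of the cells, is known for its part in cue-driven reward seeking. Fos marks such neurons because the gene is switched on quickly by strong firing. Microglia, the resident macrophages of the brain, share no lineage with neurons. They depend on the receptor Csf1r, sense nucleotides through P2ry12, and make complement C1q and lysosomal enzymes such as Ctss.

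Of the cell type and pathway lists examined, that of microglia had the highest median difference between the groups. To show the genes that moved together, 3 of its promoters that hold the motif described next are printed here. The sequences are the 250 bases before the start of each gene in the RefSeq table, build GRCm38.p6, written 5' to 3' on the gene's own strand. Capitals mark GAGGAA or, for the opposite strand, TTCCTC, the core letters bound by Ets factors such as PU.1, the master regulator of macrophages.
C1qb, chr4:136886201-136886450 on the minus strand: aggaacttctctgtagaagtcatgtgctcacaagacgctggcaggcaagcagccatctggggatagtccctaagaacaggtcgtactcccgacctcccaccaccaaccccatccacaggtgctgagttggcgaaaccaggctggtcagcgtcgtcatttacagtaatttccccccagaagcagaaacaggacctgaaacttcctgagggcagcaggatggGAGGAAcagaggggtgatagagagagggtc
Ctss, chr3:95526536-95526785 on the plus strand: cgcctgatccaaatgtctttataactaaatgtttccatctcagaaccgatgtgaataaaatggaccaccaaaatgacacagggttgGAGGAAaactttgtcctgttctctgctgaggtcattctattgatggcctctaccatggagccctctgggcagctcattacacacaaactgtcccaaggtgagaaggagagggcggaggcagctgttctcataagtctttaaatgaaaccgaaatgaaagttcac
Trem2, chr17:48346151-48346400 on the plus strand: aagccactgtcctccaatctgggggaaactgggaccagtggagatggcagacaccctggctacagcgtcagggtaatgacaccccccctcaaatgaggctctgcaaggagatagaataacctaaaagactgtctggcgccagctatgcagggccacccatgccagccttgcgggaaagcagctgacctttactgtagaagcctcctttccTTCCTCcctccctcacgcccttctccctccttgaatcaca
Of the 14 microglial genes listed, 9 had an entry in the table, and 6 of these 9 (66.7%) held GAGGAA on either strand. Of all 27025 promoters of the same length in the table, 6231 (23.1%) held it. A match describes the letters and is not a measured binding site.

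Across the transcriptome, 659 genes were higher and 1241 lower in cocaine-seeking than in non-ensemble libraries at an adjusted p under 0.05, by edgeR's quasi-likelihood test with the pool as a block. These are 3.09% and 5.82% of the 21332 genes tested, and they are the background for each count of list members past the test. For counts of members at an unadjusted p under 0.05, the background is 4977 of the 21332 genes. The differences were small, with a median absolute log2 fold change of 0.47 for the higher and 0.31 for the lower genes. A log2 fold change beyond 1 was reached by 56 higher and 7 lower genes. At an adjusted p under 0.01 together with a log2 fold change beyond 0.75, 29 genes (0.136%) were higher and 4 (0.0188%) lower. Of the higher genes, 562 were higher in all 6 pairs, as were 6.95% of all genes tested. Of the lower genes, 1061 were lower in all 6 pairs, as were 8.61% of all genes tested. Without female pool 2 the counts were 752 and 1468. Without male pool 2 they were 337 and 527, without female pool 3 they were 362 and 599, and without male pool 3 they were 395 and 638.

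These calls ended under another choice of block or of gene summing. With sex in place of the pool block, 8 genes were higher and 1 lower, although all 1900 called genes kept their direction. With length-scaled counts, which correct each gene for the mix of transcript lengths estimated in each library, 0 genes were called by edgeR, with 3172 at an unadjusted p under 0.05 and a lowest adjusted p of 0.0746. In that fit 1570 of the 1900 called genes kept their direction.

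Fold change went with expression level. The median log2 fold change was 0.57 for genes under 1 CPM (n = 1631), 0.0044 for those from 10 to 30 CPM (n = 4273) and -0.28 for those of at least 1000 CPM (n = 86). Of the 493 genes from 300 to 1000 CPM, 244 were lower and 58 higher. Of the 4885 genes from 1 to 3 CPM, 23 were higher and 2 lower. The part of this trend in each list that follows was not tested, and the microglial genes, most of them between 10 and 100 CPM, had log2 fold changes of 0.66 to 1.05 where all genes from 10 to 30 and from 30 to 100 CPM had medians of 0.0044 and -0.10.

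**Figure D1:**
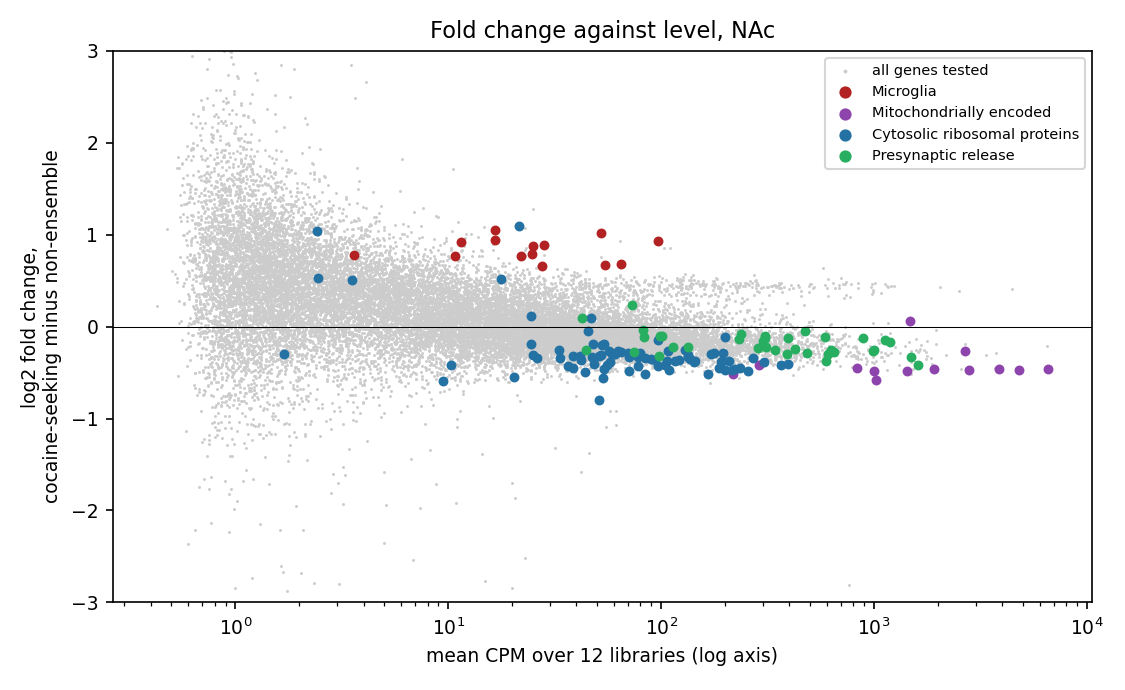
Each point is a gene, with its mean level over the 12 libraries in CPM on a log axis and its log2 fold change, cocaine-seeking minus non-ensemble, on the other axis. Points slope from above 0 at low levels to below 0 at high levels, the mitochondrially encoded genes (purple) lie at the high end below 0, and the 14 microglial genes (red) lie between 0.66 and 1.05; 20 genes beyond 3 in either direction are outside the frame.

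Library measures moved with the population as well. Pseudogenes took 3.16%, 5.24% and 5.59% of counts (lowest, median, highest of 6) in cocaine-seeking libraries and 3.05%, 3.71% and 4.24% in non-ensemble libraries, higher in 6 of 6 pairs. Mitochondrially encoded genes took 2.15%, 2.50% and 2.75% against 2.54%, 3.13% and 3.44%, lower in 6 of 6 pairs. The share of counts in transcripts with no gene match, which were left out, was 2.45%, 3.53% and 3.82% against 2.25%, 2.47% and 3.10%, higher in 6 of 6 pairs. All 3 differences reached the smallest two-sided p that an exact sign-flip permutation test over 6 pairs allows, 0.031, and 0.052 after adjustment over the 5 measures tested. Total counts were lower in 5 of 6 pairs (exact permutation p = 0.0625). The groups overlapped in each of these measures. The part of these shares in the results for single genes was not tested.

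**Figure D2:**
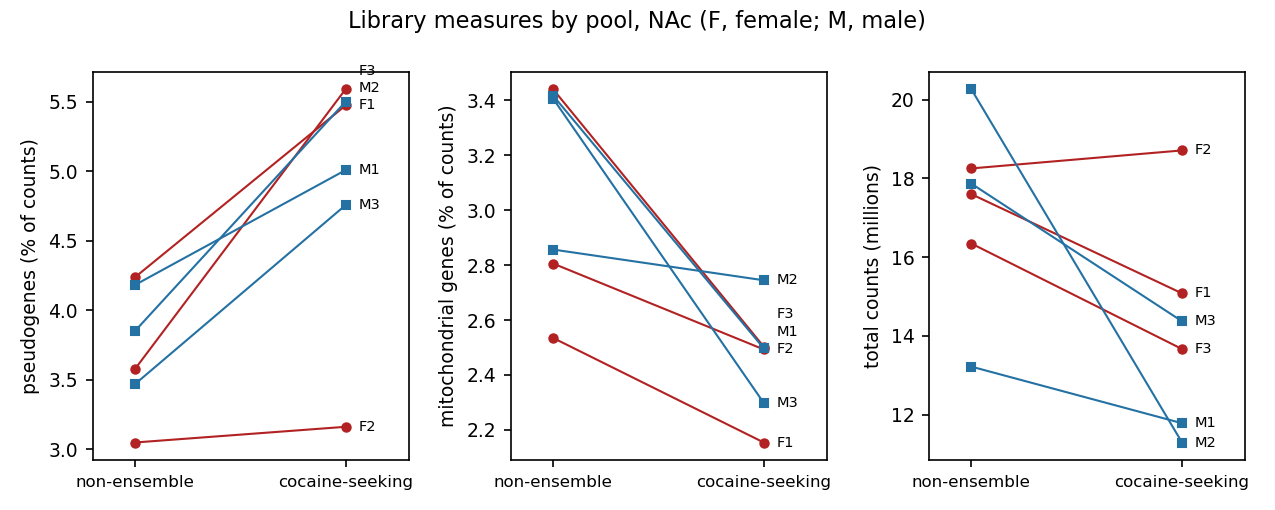
Each line joins the 2 libraries of a pool (F, female; M, male), non-ensemble on the left and cocaine-seeking on the right, for the share of counts in pseudogenes, the share in mitochondrially encoded genes and the total counts. Pseudogene shares go up in all 6 pools, mitochondrial shares go down in all 6, and total counts go down in 5.

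In the lists of cell type markers and pathways, 13 of 14 microglial genes were higher and none lower, beside 3.09% of all genes. In the opposite direction, 11 of 13 mitochondrially encoded genes, 50 of 84 cytosolic ribosomal protein genes and 7 of 10 pan-neuronal genes were lower, beside 5.82%. So were 16 of 36 genes of presynaptic release and 11 of 27 of the postsynaptic scaffold. The share of all genes called lower grew with level. It was 569 of 1855 from 100 to 300 CPM, 244 of 493 from 300 to 1000 CPM and 60 of 86 from 1000 CPM up. Whether these lists differ from other genes of their level was not tested. The list medians ranged from a log2 fold change of 0.83 for microglia down to -0.46 for the mitochondrially encoded genes and -0.55 for 7 blood cell genes, against a median of 0.06 over all genes. The endothelial, pericyte, collagen and laminin, and interferon lists had medians above 0 with at most 2 members past the test. In the lists of metabotropic glutamate receptors, serotonin receptors, cholinergic genes, endocannabinoid genes and interneuron markers, 0 genes passed edgeR's test. An unadjusted p under 0.05 was found for 5 of 10, 0 of 13, 5 of 17, 4 of 12 and 4 of 14 of them. Over all genes it was found for 4977 of 21332. With female pool 2 left out, 1 interneuron, 1 cholinergic and 1 endocannabinoid gene were lower, with male pool 1 left out 1 endocannabinoid gene was, and with female pool 1 left out, 2 metabotropic glutamate receptors were higher.

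**Figure D3:**
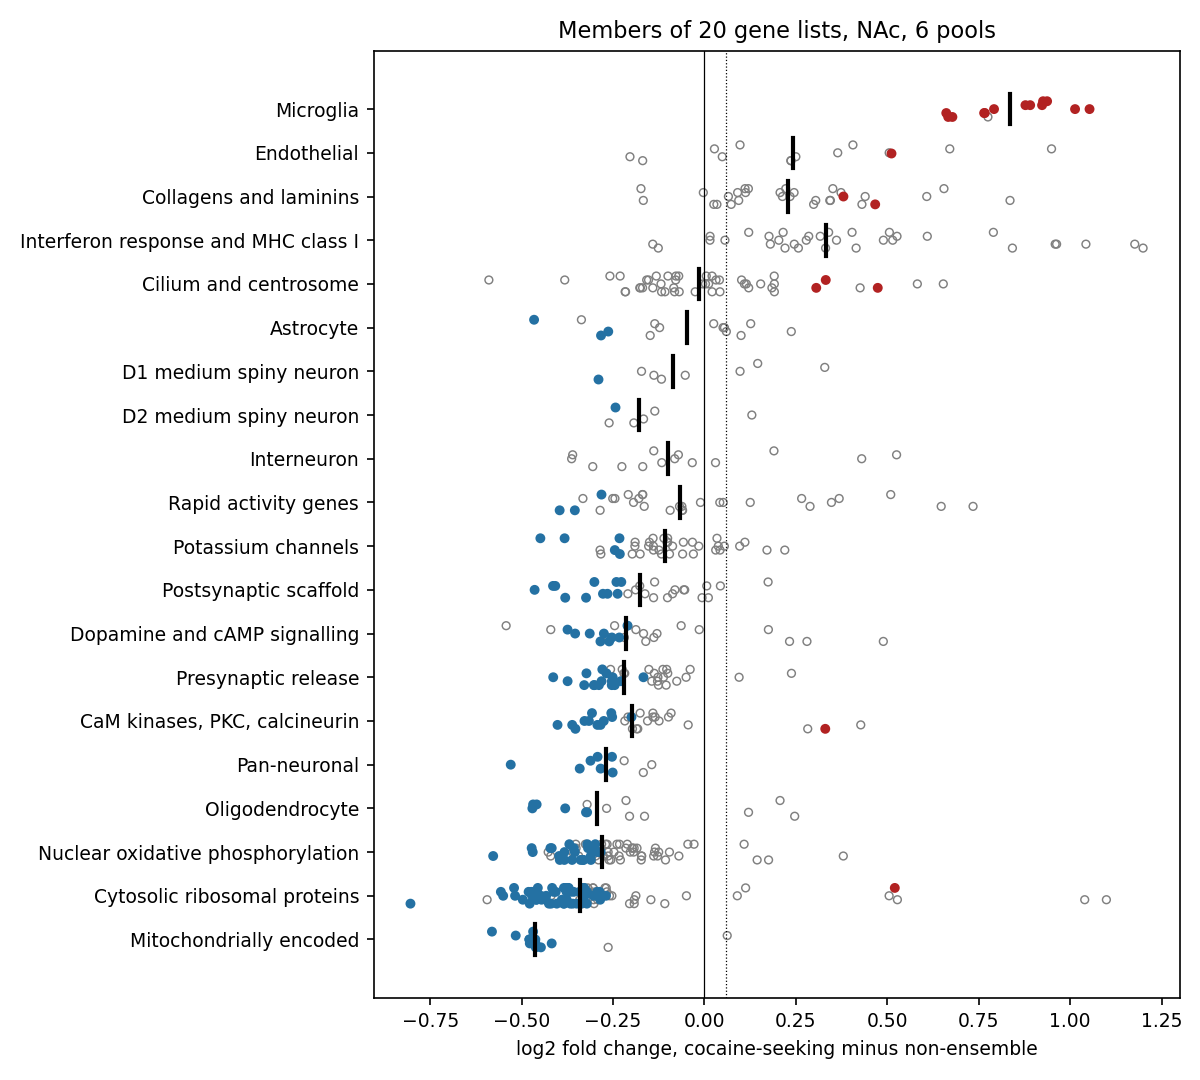
Each circle is a gene of 1 of 20 lists, at its log2 fold change between cocaine-seeking and non-ensemble libraries over 6 pools; filled circles passed an adjusted p of 0.05 (red higher, blue lower), black bars are list medians and the dotted line is the median of all genes, 0.06. The microglia list stands at a median of 0.83 with 13 of 14 filled in red, and the mitochondrially encoded, ribosomal and neuronal lists lie below 0.

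Microglial genes were higher in the cocaine-seeking libraries by 1.58-fold to 2.07-fold for the 13 members that passed, although the sort was on NeuN, a neuronal protein. Csf1r, the receptor microglia need to survive, stood at 105, 126 and 142 CPM (lowest, median, highest) in cocaine-seeking and at 56.1, 65.2 and 89.1 CPM in non-ensemble libraries. The groups did not overlap, and every pool showed the rise, a log2 fold change of 0.93 ± 0.09 (SE; adjusted p = 2.77e-04).

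Tmem119, a transmembrane protein that tells microglia from other macrophages (5:113931781-113938577 in GRCm39), had the largest fold change of the list, 1.05 ± 0.18 on the log2 scale (adjusted p = 0.00275). Its levels were 16.8, 21.2 and 29.1 CPM against 6.48, 11.6 and 12.9 CPM, with no overlap. C1qc, a chain of the complement starter C1q, stood at 26.5, 32.2 and 38.1 CPM against 13.4, 18.6 and 20.8 CPM, also apart. C1qa and C1qb, its neighbours on chromosome 4, had log2 fold changes of 0.66 ± 0.12 and 0.79 ± 0.14 (adjusted p = 0.00287 and 0.00275), and for both the groups overlapped. The 3 genes encode the 3 chains of 1 complex.

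Ctss, a lysosomal protease of antigen-presenting cells, ran from 55.4 to 86.3 CPM in cocaine-seeking and from 33.6 to 52.9 CPM in non-ensemble libraries (log2 fold change 0.67 ± 0.10, adjusted p = 0.00153). Trem2, a lipid receptor of phagocytes, ran from 12.8 to 19.8 CPM against 5.44 to 11.6 CPM (0.92 ± 0.17, adjusted p = 0.00379). Neither gene's groups overlapped, and the same held for Laptm5, a lysosomal membrane protein of blood-lineage cells (0.89 on the log2 scale), and for Selplg, the P-selectin ligand (0.68). For P2ry12, the purinergic receptor of resting microglia, the groups overlapped slightly, at 14.4 to 28.5 CPM against 8.46 to 15.5 CPM, with a log2 fold change of 0.94 ± 0.18 (adjusted p = 0.00492). Cx3cr1, the fractalkine receptor, was higher in 5 of 6 pairs (0.77 ± 0.18, adjusted p = 0.0174). Aif1, which encodes the histological marker Iba1, was the one member not past the test, at 2.01 to 7.68 CPM against 1.58 to 3.19 CPM (0.78 ± 0.35, adjusted p = 0.198).

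**Figure D4:**
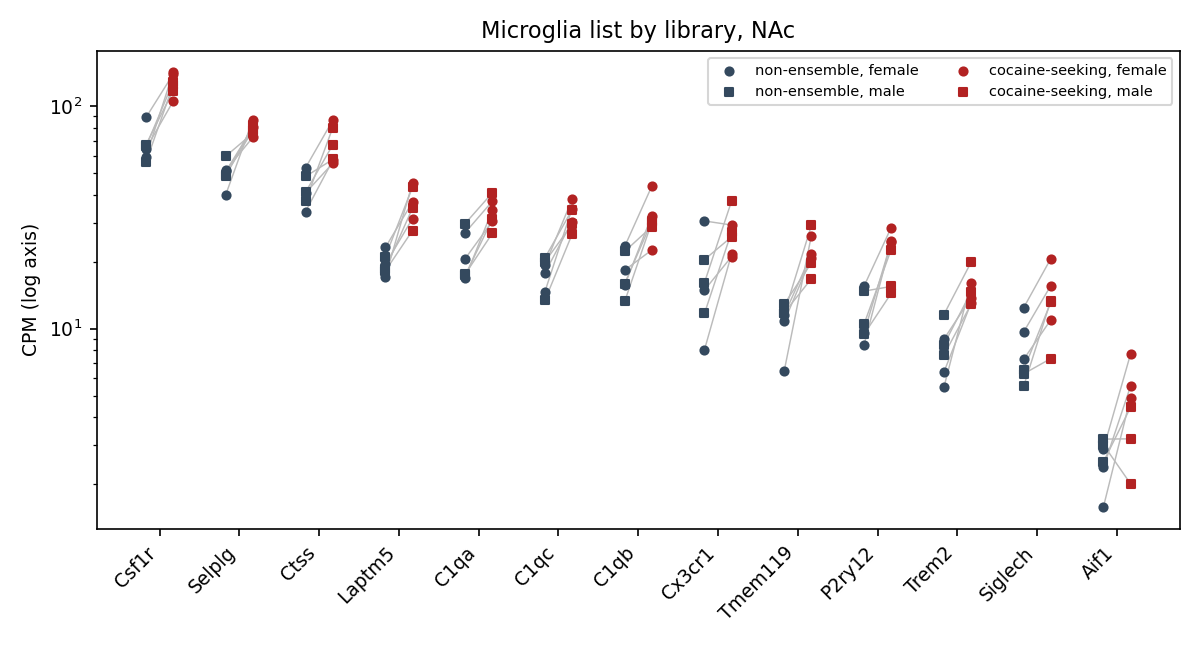
Levels of 13 of the 14 microglial genes in CPM on a log axis, non-ensemble libraries in dark grey and cocaine-seeking libraries in red, joined by pool (circles female, squares male). Csf1r runs from 105 to 142 CPM against 56.1 to 89.1 CPM, and lines rise for nearly every gene and pool.

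Summed over the 14 genes, the list stood at 525, 575 and 650 CPM in cocaine-seeking and at 293, 314 and 392 CPM in non-ensemble libraries, apart in all 12 libraries. None of the defining markers was at 0 in either group. Because bulk RNA was measured, more microglial cells or fragments in a sort and more of this RNA per sorted cell cannot be told apart. The number of members past the test was 11 to 13 when 1 pool was left out, and 13 without female pool 2. Without the pool block it was 6. With length-scaled counts it was 0, with a list median of 0.82, and 13 of the 14 genes had an unadjusted p under 0.05 there. In the female and male libraries fitted apart the list median was 0.90 and 0.81, and 1 and 4 of the 14 genes passed the test.

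Genes outside that list that met the rule for the largest rise (protein-coding, at least 5 CPM on average, the same direction in all 6 pairs) included further genes of blood-lineage cells. P2ry13, a nucleotide receptor next to P2ry12 on chromosome 3, had the largest fold change, 1.20 ± 0.20 on the log2 scale (adjusted p = 0.00208), and stood at 8.38, 10.0 and 19.0 CPM against 2.28, 4.78 and 10.8 CPM. Pld4, an endolysosomal exonuclease, followed at 1.19. Pld4 was 9.55 to 15.8 CPM against 2.93 to 7.76 CPM, with no overlap. Slco2b1, an organic anion transporter, stood at 25.0 to 36.6 CPM against 9.29 to 19.0 CPM (1.07 on the log2 scale). Il6ra, the interleukin 6 receptor chain, stood at 12.4 to 17.8 CPM against 5.46 to 11.5 CPM (1.01). The others were Arhgap4 (1.12), Gna15, a G protein subunit of blood cells (1.09), Tnfrsf1b, a tumour necrosis factor receptor (1.03), Serpinc1, which encodes antithrombin (1.10), and Semp2l1 (1.01).

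Markers of other cells that a brain sort could hold did not move in the same way. In the blood list, Ptprc, the pan-leukocyte gene that microglia also express, was higher (0.74 ± 0.17, adjusted p = 0.0120), while the haemoglobin genes Hba-a1, Hba-a2 and Hbb-bs were lower (-0.60, -0.57 and -0.55). Hba-a1 and Hba-a2 are near-identical copies, so their separate values are uncertain. The 3 lower blood genes were 2 without female pool 2, female pool 3 or male pool 1, and 1 without male pool 2 or male pool 3. Without male pool 2 none was higher. In the endothelial list 1 of 14 was higher, Kdr, a receptor for vascular endothelial growth factor (0.51 ± 0.15, adjusted p = 0.0422). Endothelial counts were 2 without female pool 2 or male pool 1, and 0 without any other pool. Of the pericyte, ependymal and meningeal lists, 0 genes passed edgeR's test, and 1, 1 and 2 members had an unadjusted p under 0.05. Leaving out female pool 2 gave 1 lower meningeal gene, and leaving out male pool 1 gave 1 higher pericyte gene. Of 33 interferon and MHC class I genes, 0 passed and 4 had an unadjusted p under 0.05, with a list median of 0.33. Leaving out female pool 1 or male pool 1 gave 1 higher gene of this list.

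Oligodendrocyte and astrocyte genes were expressed strongly in both groups, although the sort was on NeuN. Summed astrocyte markers took 5036 to 7086 CPM in cocaine-seeking libraries, of which Slc1a2 alone took 2958 to 4104 CPM. Myelin genes were lower in cocaine-seeking libraries, in 6 of 14 listed, and in 7 without female pool 2. The count was 4 without female pool 3, and 5 without female pool 1 or any 1 male pool. Mbp, myelin basic protein, stood at 638, 953 and 1262 CPM against 982, 1364 and 1639.5 CPM. The ranges overlapped between pools, but Mbp was lower in every pair (log2 fold change -0.47 ± 0.05, adjusted p = 3.36e-04). Mobp, another myelin protein, had a log2 fold change of -0.46. Bcas1, a gene of newly forming oligodendrocytes that was picked by the rule for the largest falls, stood at 83.6, 147 and 159 CPM against 143, 211 and 263 CPM (-0.61 ± 0.06, adjusted p = 2.77e-04). Of the astrocyte list 3 of 14 were lower, among them Slc1a2, which encodes the main glutamate transporter, at -0.28, and S100b, a calcium-binding protein, at -0.47. Aqp4, the astrocyte water channel, was not past the test at 0.05 (adjusted p = 0.768).

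Pan-neuronal genes were lower in the cocaine-seeking libraries. Map2, a dendritic microtubule protein, stood at 1471, 1600.4 and 1907 CPM against 1921, 2080.3 and 2188 CPM. Every cocaine-seeking library lay under every non-ensemble library, by a log2 fold change of -0.34 ± 0.05 (adjusted p = 0.00122). Nefl, the light neurofilament chain, stood at 231, 341 and 465 CPM against 359.6, 507 and 622 CPM (-0.53 ± 0.07, adjusted p = 7.00e-04). Rbfox3, which encodes NeuN, the protein used for the sort, stood at 218, 234 and 258 CPM against 238, 291 and 309 CPM (-0.25 ± 0.06, adjusted p = 0.0187). The ranges of Nefl and Rbfox3 overlapped between the groups. Syt1, the calcium sensor of vesicle release, was not past the test at -0.14 (adjusted p = 0.0953). Summed over 10 genes the list stood at 4935 to 6253 CPM against 5926 to 7106 CPM, lower in all 6 pairs, while the microglia list was higher in all 6. The part of the microglial, pseudogene and mitochondrial shares in these falls was not tested. Without female pool 2, 8 of the 10 were lower, without male pool 2, 3 were, and without female pool 3, 4 were.

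Genes of synaptic release and of the postsynaptic density followed. Cplx2, a complexin that holds vesicles ready to fuse, stood at 1248, 1308 and 1554 CPM against 1549.7, 1816 and 2082 CPM, which overlapped only at the edge (log2 fold change -0.41 ± 0.05, adjusted p = 4.59e-04). Bsn, the active zone scaffold bassoon, stood at -0.33 and Dnm1, the GTPase that frees endocytic vesicles, at -0.27 on the log2 scale. On the receiving side, Ppp1r9b, which encodes the spine protein spinophilin, stood at 1114, 1210.2 and 1589 CPM against 1451, 1784 and 2056 CPM (-0.46 ± 0.05, adjusted p = 3.22e-04). Shank1 and Dlg4, scaffolds of the postsynaptic density, had log2 fold changes of -0.41 and -0.32. No listed gene of either synaptic list was higher. The 16 lower presynaptic genes were 20 without female pool 2, but 8 without male pool 2, 8 without male pool 3 and 9 without female pool 3. The 11 lower postsynaptic genes were 14 without female pool 2 and 8 to 11 without any other pool. With length-scaled counts the list medians of -0.22 and -0.18 became -0.09 and -0.03, and Bsn and Dnm1 turned to 0.054 and 0.068.

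Of 29 calcium and calmodulin kinases, protein kinases C and calcineurin genes, 12 were lower and 1, Prkcq, was higher. The lower genes were 15 without female pool 2 and 9 to 11 without any other pool. Camk2a, the kinase of synaptic plasticity, stood at 1444, 1556 and 1884 CPM against 1883, 2169 and 2262 CPM, with the highest cocaine-seeking library at the level of the lowest non-ensemble library (-0.40 ± 0.05, adjusted p = 7.84e-04). Prkcz, an atypical protein kinase C, and Camk2b, another subunit of the plasticity kinase, stood at -0.36 and -0.28 on the log2 scale. Ion channel lists moved less, with 5 of 38 potassium, 3 of 16 calcium and 2 of 12 sodium channel genes lower and none higher. These counts were 5, 4 and 4 without female pool 2, with 1 calcium channel gene higher. Without female pool 3, male pool 2 or male pool 3 the potassium count was 2 and the sodium count 1, and without female pool 1 the sodium count was also 1. Kcnj10, an inward rectifier that glia express, had the smallest adjusted p of the potassium list, at a log2 fold change of -0.38. The largest fall of that list was -0.45.

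Of the dopamine and cAMP signalling genes of medium spiny neurons 34.6% were lower, beside 5.82% of all genes. Whether they differ from the markers of the neuron subtypes was not tested. The medians of the signalling and D2 lists were -0.21 and -0.18. Of 26 genes of dopamine and cAMP signalling, 9 were lower and none higher. This count was 11 without female pool 2, 4 without female pool 3, 4 without male pool 2 and 3 without male pool 3. Ppp1r1b, which encodes the dopamine-regulated phosphatase inhibitor DARPP-32, stood at 484, 835 and 1090.1 CPM against 681, 1102 and 1269.6 CPM. These ranges overlapped because pools differed widely, and within pools it was lower in every pair (-0.37 ± 0.05, adjusted p = 0.00104). Adcy5, the striatal adenylyl cyclase, stood at -0.26 and Gnb1, a G protein beta subunit, at -0.35 on the log2 scale. Of 18 phosphodiesterases, 4 were lower, among them Pde1b at -0.27, and Pde3b, a cAMP phosphodiesterase, was higher at 0.64. The lower count was 5 without female pool 2 and 2 without male pool 2.

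Of the short D1 and D2 marker lists 12.5% and 16.7% were lower, beside 5.82% of all genes. Of 8 D1 markers 1 was lower, Pdyn, the dynorphin precursor (-0.29 ± 0.07, adjusted p = 0.0231), and of 6 D2 markers 1 was lower, Penk, the enkephalin precursor. Penk stood at 553, 1041 and 1297 CPM against 728, 1211 and 1409 CPM (-0.24 ± 0.05, adjusted p = 0.00597). Drd1 and Drd2, the dopamine receptors themselves, stood at -0.14 and -0.17 on the log2 scale (adjusted p = 0.286 and 0.190). Tac1, the substance P precursor of D1 neurons, stood at -0.17 (adjusted p = 0.368) and at 0.025 in the female libraries alone. The list medians were -0.08 for D1 and -0.18 for D2, and the summed D2 list was lower in 6 of 6 pairs and the D1 list in 5 of 6. An unadjusted p under 0.05 was found for 1 of 8 D1 and 3 of 6 D2 markers. The D1 count was 2 without female pool 2, and 0 without female pool 3 or any 1 male pool. The D2 count was 1 without any 1 pool. Bcl11b, a transcription factor that medium spiny neurons need to mature, was lower at -0.33 ± 0.06 (adjusted p = 0.00205). With length-scaled counts Bcl11b turned to 0.12 and Adcy5 to 0.080.

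No rapid activity gene passed the test as higher in the neurons tagged for cocaine seeking, where few of all genes did. Of 29 tested, 0 were higher by edgeR and 3 lower (10.3%), or 4 lower without female pool 2. Over all genes 3.09% were higher and 5.82% lower. An unadjusted p under 0.05 was found for 7 of the 29, about the same share as the 4977 of all 21332 genes. Fos, whose promoter drives the tag and whose protein was stained in the second label, stood at 5.23, 10.8 and 18.7 CPM against 6.51, 12.8 and 22.1 CPM. The groups overlapped almost fully (log2 fold change -0.16 ± 0.21, adjusted p = 0.672). Arc, a spine protein made on strong activity, stood at 71.7, 99.7 and 128 CPM against 80.9, 132 and 194 CPM, and was lower in the test (-0.40 ± 0.07, adjusted p = 0.00315). Jund and Egr3, transcription factors of the same response, stood at -0.35 and -0.28 on the log2 scale. Arc turned to 0.076 and Jund to 0.094 with length-scaled counts. Cocaine-tagged cells were collected after the sucrose test and had no cFos protein, by their gate.

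Lists of transmitter handling, chaperones, chromatin, matrix and cilium gave smaller counts, beside 5.82% of all genes lower and 3.09% higher. Their shares lower were 28.6% for transmitter handling, 18.8% for chaperones, 7.1% for histone deacetylases and 11.8% for DNA methylation. The shares higher were 6.7% for collagens and laminins and 6.25% for cilium and centrosome. Where 1 to 3 genes were called, they do not describe their list. Of 21 genes of GABA and glutamate synthesis and transport 6 were lower and 1 higher, with 8 lower without female pool 2, and 2 without female pool 3 or male pool 2. Glul, the glutamine synthetase of astrocytes, stood at -0.35, Slc32a1, the vesicular GABA transporter, at -0.26, and Slc17a7, a vesicular glutamate transporter of cortical neurons, at -0.18 on the log2 scale. Slc17a7 turned to 0.23 with length-scaled counts. Of 32 heat shock chaperones 6 were lower, among them Hspa8 (-0.24) and Hsp90ab1 (-0.26). The chaperone count was 12 without female pool 2, 3 without female pool 1, 2 without female pool 3, 1 without male pool 3 and 0 without male pool 2. Among histone deacetylases 1 of 14 was lower, Hdac5 (-0.40 ± 0.07, adjusted p = 0.00206), which turned to 0.019 with length-scaled counts. Of 17 genes of DNA methylation 2 were lower, among them Mbd3 at -0.34 on the log2 scale, and without female pool 3, 1 was. Of 30 collagens and laminins 2 were higher, Col6a1 (0.47) and Col4a1 (0.38), and of 48 genes of cilium and centrosome 3 were higher, led by Ift80 (0.47), a transport protein of the cilium. The collagen and laminin count was 3 without female pool 2, 1 without female pool 1 or male pool 2, and 0 without any other pool. The cilium count was 1 without female pool 3 or any 1 male pool, and female pool 2 left out added 1 lower gene.

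Genes of energy metabolism and translation were lower in larger shares than all genes tested. The share called lower also grew with level over all genes, to 244 of 493 from 300 to 1000 CPM and 60 of 86 from 1000 CPM up. Whether these lists differ from other genes of their level was not tested. mt-Co1, a cytochrome oxidase subunit, stood at 4642, 5534 and 6014 CPM against 5626, 7892 and 8516 CPM, overlapping through 1 non-ensemble library. It was lower in every pair by a log2 fold change of -0.46 ± 0.05 (adjusted p = 2.77e-04). mt-Nd5, a subunit of complex I, had a log2 fold change of -0.48. The mitochondrially encoded members not past the test were mt-Atp6 at -0.26 and mt-Co2 at 0.06. Of 74 nuclear genes of oxidative phosphorylation, 24 were lower and none higher, among them Ndufv1 of complex I at -0.37 and Atp5f1a of the ATP synthase at -0.33. This count was 34 without female pool 2, but 6 without male pool 2, 8 without female pool 3 and 8 without male pool 3. The count of 11 mitochondrially encoded genes was the same without any 1 pool. The sum of the mitochondrially encoded genes was 21046, 24835 and 26494 CPM against 26427, 33703 and 38399 CPM.

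The median log2 fold change of cytosolic ribosomal protein genes was -0.34, and -0.52 with length-scaled counts. Rpl41, which encodes the smallest of these proteins, stood at 118, 132 and 179 CPM against 166, 197 and 225 CPM, and was lower in every pair (-0.52 ± 0.06, adjusted p = 6.35e-04). Rps10 had the largest fall, -0.80 ± 0.13 (adjusted p = 0.00223), at 32.3 to 41.3 CPM against 38.7 to 79.8 CPM. Rpl12 was the only member of the 84 past the test as higher. Ribosomal protein genes have many processed pseudogenes, between which near-identical reads can be split, so values of single members are uncertain. Without female pool 2, 53 of the 84 were lower and none was higher. The lower count was 46 without female pool 1, 43 without male pool 1 and 39 without female pool 3. It was 34 without male pool 2 or male pool 3. The largest falls by the rule also took in Mrpl46, a mitochondrial ribosomal protein (-0.86), S100a16, a calcium-binding protein (-0.75), and Rhoc, a small GTPase (-0.92). Eif3j2, an initiation factor subunit with a near-identical copy, stood at 5.66 to 10.3 CPM against 12.3 to 16.2 CPM.

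At the other end, 223 genes of at least 100 CPM were higher, and 68 of them were pseudogenes and 47 odorant, vomeronasal, trace amine or taste receptors. Most of these receptors are known from the nose and tongue. Of 1078 such receptor genes tested, 146 were higher and none lower, with a median log2 fold change of 0.49. This count was 161 without female pool 2, but 80 without male pool 2, 86 without female pool 3 and 95 without male pool 3. Their summed level was 13563, 25109 and 26084 CPM against 11772, 16127 and 20621 CPM, higher in 6 of 6 pairs. Nopchap1 (0.41 on the log2 scale at 4457 CPM), Tmem72 (0.39 at 2507 CPM) and Vmn2r53, a vomeronasal receptor (0.45 at 1240 CPM), were the most abundant of the named protein-coding genes. The 68 pseudogenes ran from 0.33 to 0.86 and the 47 receptors from 0.38 to 0.53, a narrow band. Of all 2553 pseudogenes tested, 107 were higher and 8 lower. With length-scaled counts the receptor median fell to 0.16 and the pseudogene median to 0.28.

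Of 17 genes that the study singled out in the NAc, 14 were tested, of which 2 were higher and 2 lower. The lower count was 4 without female pool 2 and 1 without male pool 2. The study named Tac1, Penk, Syt1 and Gad1 as markers of neuronal subclusters. It chose the others on these samples, so they are no independent evidence of a direction. Slc38a6, a neuronal amino acid transporter, stood at 574, 861 and 922 CPM against 518, 636 and 821 CPM. Its groups overlapped, and it was higher in the test (0.35 ± 0.06, adjusted p = 0.00301). The 68 pseudogenes of at least 100 CPM called higher ran from 0.33 to 0.86, a range that takes in the value of Slc38a6. Whether its rise is related to theirs was not tested. Colec12, a scavenger receptor, stood at 80.6, 129 and 142 CPM against 76.4, 85.5 and 116 CPM (0.42 ± 0.09, adjusted p = 0.00696). Female pool 2 gave the lowest cocaine-seeking value of both genes and also the lowest cocaine-seeking pseudogene share, 3.16%.

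Pde2a, a phosphodiesterase that degrades cGMP and cAMP, was lower at -0.33 ± 0.08 (adjusted p = 0.0148), from 301 to 480.3 CPM against 323 to 565 CPM. It turned to 0.048 with length-scaled counts. Penk was the other lower gene. Gad1, the enzyme of GABA synthesis, stood at -0.18 (adjusted p = 0.107), and Trim2, a ubiquitin ligase, at -0.15 (adjusted p = 0.0781). Drd4, a dopamine receptor, was near the limit of detection at 0.177 to 4.02 CPM against 0.562 to 2.99 CPM (-0.54 ± 0.56, adjusted p = 0.594). The replication-dependent histone gene H2ac24 stood at 1.58 ± 1.25 (adjusted p = 0.479), with libraries at 0 in both groups.

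The sexes were compared by the difference of the population effect between female and male pools. By edgeR 0 of 21332 genes differed, with 615 at an unadjusted p under 0.05, and DESeq2 also called 0. Without female pool 2, 2 genes differed. Fitted alone, the 6 female libraries gave 5 higher and 2 lower genes and the 6 male libraries 180 and 209, which does not show that the sexes differ. The median of the microglial genes was above 0 in both.

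The same comparison in medial prefrontal cortex (mPFC) used 12 other libraries, which by the study's methods came from the same mice, so it is no independent repeat. The microglia list had a median of 0.82 there and the pan-neuronal list of -0.37. Dopamine and cAMP genes had a median of -0.36 in mPFC and -0.21 in NAc, and astrocyte genes of -0.23 and -0.05. Csf1r had a log2 fold change of 1.03 (adjusted p = 4.65e-04) and Mbp of -0.72 (adjusted p = 1.61e-04). The difference between regions was past the threshold for 0 of 25558 genes by edgeR, with 986 at an unadjusted p under 0.05 and a lowest adjusted p of 0.357, and for 1 gene by DESeq2. Drd4 stood at 0.03 and Slc38a6 at 0.32 in mPFC.

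The other 2 labelled populations of the NAc set these differences on a wider scale, through comparisons that share the cocaine-seeking libraries. Against sucrose-seeking libraries, 2857 genes were higher (11.4%) and 1400 lower (5.57%) of 25150 tested in a fit of 24 libraries. The summed microglia list was 251, 302 and 339 CPM in sucrose-seeking and 589, 688 and 813 CPM in overlapping libraries, so both tdTomato+ populations stood above both tdTomato- populations. In the test of cocaine-seeking against sucrose-seeking libraries, 12 of the 14 genes were higher at an adjusted p under 0.05. The list had a median log2 fold change of 1.07 there. Csf1r averaged 126 ± 13.7 CPM (SD, n = 6) in cocaine-seeking, 67.0 ± 11.6 in non-ensemble, 59.5 ± 9.12 in sucrose-seeking and 159 ± 21.1 CPM in overlapping libraries. Its difference between cocaine-seeking and overlapping libraries was -0.34 and not past the test (adjusted p = 0.999).

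Neuronal genes had another order. Map2 averaged 2075 ± 110.4 CPM (SD, n = 6) in non-ensemble, 1635 ± 145 in cocaine-seeking, 1552 ± 144 in overlapping and 1400.4 ± 177 CPM in sucrose-seeking libraries. Penk, Ppp1r1b and mt-Co1 were likewise highest in non-ensemble and lowest in sucrose-seeking libraries by their means. Slc38a6 had the reverse order, with means of 649 ± 102 in non-ensemble, 824 ± 128 in cocaine-seeking and 1091 ± 122 CPM in sucrose-seeking libraries. Arc, at a mean of 85.6 ± 22.3 CPM, was lowest in sucrose-seeking libraries, whose cells carried cFos protein. Between cocaine-seeking and overlapping libraries 0 of 25150 genes differed by edgeR, with 1091 at an unadjusted p under 0.05.

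**Figure D5:**
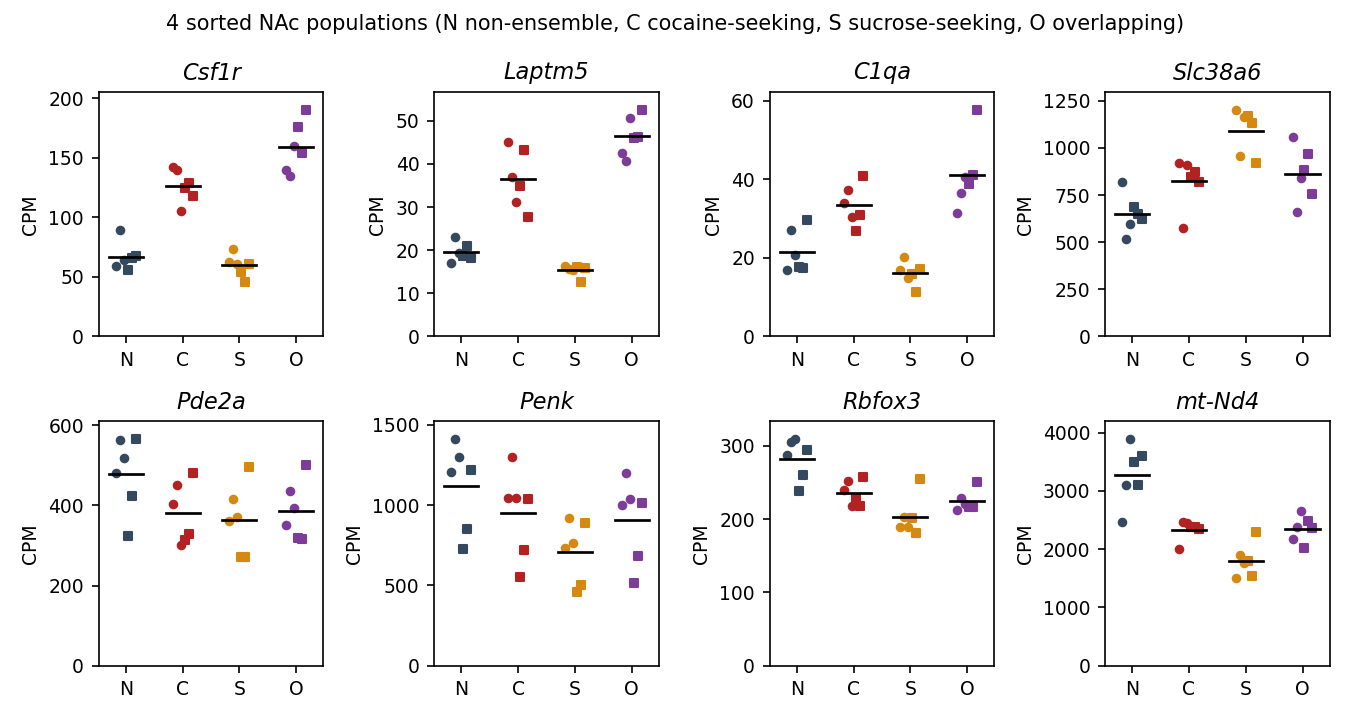
Levels of 8 genes in CPM (axes from 0) in the 6 libraries of each sorted NAc population: N non-ensemble, C cocaine-seeking, S sucrose-seeking, O overlapping; circles are female and squares male pools, and bars are means. Csf1r averages 126 in C and 159 in O against 67.0 in N and 59.5 CPM in S, while Slc38a6 averages 1091 in S against 649 CPM in N.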

How the data were processed

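The authors trimmed paired 150-base reads of low-input libraries (CutAdapt) and deposited Salmon's estimated counts, TPM and effective lengths per transcript on build GRCm39. Their notes also name FastQC and DESeq2; tool versions were not given. Here the deposited estimated counts were summed to 35889 genes of GENCODE vM39 (116085 of 117209 transcripts matched, 1124 left out with 2.25% to 3.82% of counts) and rounded. By the study's methods tissue of 3 mice was pooled before sorting, so the pool was a block; the labels do not say that a replicate number marks 1 pool across populations. Same-pool deviations correlated at 0.040 to 0.39 (female) and 0.20 to 0.26 (male), other pairings at -0.39 to 0.21 and -0.30 to 0.12, with the best match in the own pool for 2 of 3 female and 3 of 3 male pools. The test was edgeR 4.0.16 (quasi-likelihood, TMM, filterByExpr, R 4.3.3), adjusted over all genes tested and tested on simulated data. With 200 of 20194 genes changed there, it recovered 22% of those at an absolute log2 fold change of 0.5 and 57% at 1. It made 4 false calls. In that setting many changes of the size seen here would be missed, and a count of 0 does not show that there is no difference. The share of genes changed there was below the share called in the data, so the recovery here can differ. The sex, region and overlapping comparisons were not simulated. CPM use TMM factors of the 24 NAc libraries. The deposited TPM and effective lengths (other unit) served for length-scaled counts only; DESeq2 1.42.0 and limma 3.58.1 gave alternatives. P-values measure the spread between pools. Members and lists were chosen with earlier results of these data known. Named genes were the 12 largest changes a direction among protein-coding genes past 0.05 with at least 5 CPM and 1 direction in all 6 pairs, the study's NAc genes, up to 4 members a list with the smallest adjusted p, Fos and Rbfox3; microglial members, list members and abundant genes beyond these, the receptor, pseudogene and noncoding classes and the level bins were chosen after values were seen. The naive libraries were not used. Genes withheld from this text are counted in their lists but not reported.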

Additional observations from a re-analysis of the deposited data

Results flagged for a closer look

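Among 390 groups of 6 libraries examined, for named genes and list sums, 25 held 1 library far from the other 5 by Dixon's criterion (0.625 for 6 values), where chance gives about 1 in 20 groups. Of these, 15 fell on a library of female pool 2, the pool set apart by Ddx3y and Eif2s3y. Its cocaine-seeking library was the highest of 6 for Map2 (1910 CPM, others 1470 to 1630), Gnb1 (579, others 388 to 438), Cacnb1 (195), Atp5f1a (578), Stip1 (126) and Rpl41 (179 CPM). It was also the highest for the summed sodium channels (2860 CPM), nuclear oxidative phosphorylation genes (6300), histone deacetylases (891) and glucocorticoid and stress genes (749 CPM). It was the lowest for Slc38a6 (574 CPM, others 821 to 922) and Colec12 (80.6 CPM, others 120 to 142).

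The non-ensemble library of that pool was the highest for Csf1r (89.1 CPM, others 56.1 to 67.1), Rhoc (13.8 CPM) and Cacnb1 (239 CPM). In female pool 1, the non-ensemble library was the lowest for Tmem119 (6.48 CPM, others 10.8 to 12.9), mt-Co1 (5630 CPM, others 7650 to 8520) and the summed oligodendrocyte precursor genes (490 CPM), and the cocaine-seeking library the lowest for mt-Nd4 (2000 CPM). The non-ensemble library of female pool 3 was the highest for the summed ependymal genes (111 CPM, others 43.1 to 54.6). Among male pools, single libraries stood apart for Smim36 (2.44 CPM) and Drd4 (4.02 CPM) in cocaine-seeking pool 1, Rora (135 CPM) in non-ensemble pool 1, Grin2b (1040 CPM) in non-ensemble pool 2 and S100a16 (32.2 CPM) in non-ensemble pool 3.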

How the results depend on the processing

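The pool block decided the number of calls: without it 8 genes were higher and 1 lower, and 9 of the 1900 called genes passed. Length-scaled counts gave 0 and 0. DESeq2 called 993 higher and 1840 lower, the fit of 24 NAc libraries 1165 and 1657, female libraries alone 5 and 2, male libraries alone 180 and 209, and the study's thresholds (adjusted p under 0.01, log2 fold change beyond 0.75) 29 and 4. Leaving out 1 pool gave 337 to 752 higher and 527 to 1468 lower. The sex difference had 90 genes with no filter on low counts and 0 to 2 with 1 pool left out; the region difference had 1 by DESeq2, 1 with no filter and 0 to 1 with 1 pool left out. Size factors of DESeq2, limma-voom, other filters and protein-coding genes alone kept both main counts within 1.5 times. With length-scaled counts the sign turned for Pde2a (0.048), Slc17a7 (0.23), Arc (0.076), Jund (0.094), Vgf (0.16), Adcy5 (0.080), Chgb (0.071), Grik5 (0.18), Cacnb3 (0.0073), Kcnh3 (0.14), Bsn (0.054), Dnm1 (0.068), Dlgap3 (0.069), Bcl11b (0.12) and Hdac5 (0.019). It also turned for Tac1 (0.025) and Fos (0.048) in females alone, for Fos with 1 pool left out (-0.32 to 0.015) and for H2ac24 in males alone (-1.70). The cause was not tested. Depth limits genes near 1 CPM, such as Drd4 and Gpbar1, whose standard errors of 0.56 and 0.71 on the log2 scale allow changes in either direction, and 3 of the study's 17 NAc genes had too few counts to be tested.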
